A study of Caenorhabditis elegans with 2 samples.

Results

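The genes described here are 33 that encode subunits of the 26S proteasome in Caenorhabditis elegans, out of 19973 protein-coding genes on the nuclear chromosomes. They were taken by name, as every protein-coding gene of the Ensembl WBcel235 release 115 annotation whose name begins pas-, pbs-, rpn- or rpt-. A subunit gene with a name of another form is not among them. The core particle accounts for 14 of them and the regulatory particle for 19. What was measured at each is where MADF-6, a protein with the DNA-binding MADF domain, sat on chromatin near the annotated 5′ end of the gene.

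The proteasome destroys proteins that carry ubiquitin chains. Its core particle is a barrel of outer alpha rings (pas genes) and inner beta rings (pbs genes), and some beta subunits hold the protease sites. The regulatory particle caps the barrel: its base holds the rpt ATPases, which unfold substrates, together with ubiquitin receptors and scaffold subunits, and its lid carries the deubiquitinase RPN-11. Subunits are needed in fixed proportions, and in this species the transcription factor SKN-1 is known to raise proteasome gene transcription when proteasome activity falls.

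Both samples were whole young adults of strain RW12237, collected at 63 h from cultures synchronised by bleaching and starvation at the first larval stage, and numbered as biological replicates 1 and 2 of a single group. In this strain a CRISPR insertion places TY1, EGFP and 3xFLAG tags on the endogenous madf-6 gene, and chromatin was precipitated with an antibody to GFP after sonication. No untagged animals, other stage or other tissue were analysed here, so binding in separate cell types cannot be told apart, and the labels do not say how many animals made up a replicate. The deposited lists hold peaks, not reads, so the depth of both samples is unknown and no p-value was computed. Replicate 1 has 2803 thresholded peaks and replicate 2 has 4519, while the conservative list made from both has 4384. Ranked lists, which hold the calls before thresholding, have 57453 entries for replicate 1, 65847 for replicate 2 and 63808 for both combined.

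A gene counts as bound if a conservative peak has its summit no more than 500 bp from the annotated 5′ end. The signal of a peak is the authors' enrichment value, whose scale differs between lists, so values are ranked only within a list. Positions are distances from the annotated 5′ end, either upstream of it or inside the gene. In this species many transcripts are trans-spliced, so RNA synthesis can begin farther upstream, and trans-splicing was not tested here. The letters AG stood directly before it in 24 of the 33 proteasome genes (72.7%), against 27.6% of all protein-coding genes.

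Sequences at the summits are given first for 6 bound genes and for rpn-6.1, whose summit lay inside the gene. They include pas-6 and rpn-3, which had the highest signal of the core and of the regulatory particle. Each is 101 bases centred on the conservative summit, on the strand of the gene, read from the RefSeq copy of WBcel235, which is ce11 under another name. Capitals mark matches, on either strand, to 4 words of 7 letters that were frequent at strong MADF-6 summits elsewhere in the genome. The first is AAGGCGC, with TACCGTA as the second. The third is CGAGACC, while GCGCGAA is the last. The window of rpn-9 holds none of them and is shown for contrast. Among all 21 bound genes only 7 summit windows hold a word, so the windows shown are richer in words than the set.

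pas-6 (V:5584533-5584633): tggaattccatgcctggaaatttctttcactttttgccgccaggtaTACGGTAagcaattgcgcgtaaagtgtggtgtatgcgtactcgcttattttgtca
rpn-3 (III:8447118-8447218): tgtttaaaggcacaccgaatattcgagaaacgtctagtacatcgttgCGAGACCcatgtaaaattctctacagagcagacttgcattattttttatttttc
rpn-5 (II:4698414-4698514): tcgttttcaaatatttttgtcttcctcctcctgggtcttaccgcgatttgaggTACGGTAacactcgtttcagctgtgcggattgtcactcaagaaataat
rpn-6.2 (III:9001611-9001711): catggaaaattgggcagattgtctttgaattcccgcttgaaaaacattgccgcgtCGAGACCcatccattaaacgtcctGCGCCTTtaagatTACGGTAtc
rpn-1 (IV:6910202-6910302): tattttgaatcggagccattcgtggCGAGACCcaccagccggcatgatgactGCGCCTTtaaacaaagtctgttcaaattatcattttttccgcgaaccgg
rpn-9 (II:11239114-11239214): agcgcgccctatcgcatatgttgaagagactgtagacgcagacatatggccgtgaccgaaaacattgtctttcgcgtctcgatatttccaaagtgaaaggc
rpn-6.1 (III:6961303-6961403): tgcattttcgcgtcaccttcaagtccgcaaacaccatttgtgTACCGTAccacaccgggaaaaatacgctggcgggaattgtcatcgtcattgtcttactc

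Of these genes, rpn-3 lies on the plus strand and the other 6 on the minus strand.

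MADF-6 was bound at 21 of the 33 proteasome genes (63.6%), where 12.3% of all protein-coding genes were bound in the same list. With this 500 bp window the core and regulatory particle had nearly equal shares: 9 of 14 core genes (64.3%, 95% Wilson interval 38.8 to 83.7) and 12 of 19 regulatory genes (63.2%, interval 41 to 80.9) were bound. The difference was 1.13 percentage points, with a Newcombe interval from -29.9 to 30.5. These intervals treat genes as independent draws, although genes are not replicates, and they do not measure variation between samples. With so few genes they are wide and leave room for a large difference either way. By subcomplex, 4 of 7 alpha ring genes, 5 of 7 beta ring genes, 6 of 10 base genes and 6 of 9 lid genes were bound. Inside the base the counts were unequal, with 2 of the 6 rpt ATPase genes bound and all 4 of the rpn genes. The genes were listed with earlier results of these data known, so these counts are a description and were not tested.

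The replicates taken separately gave different counts, mostly in the core particle. In the thresholded list of replicate 1, 15 proteasome genes had a summit in the window (45.5%, against 8.75% of all genes), 5 in the core and 10 in the regulatory particle. In that of replicate 2 there were 25 (75.8%, against 12.9%), 12 in the core and 13 in the regulatory particle. The core share was thus below the regulatory share in replicate 1, by -16.9 percentage points, and above it in replicate 2, by 17.3 points. The beta ring differed most, with 1 of its 7 genes in the list of replicate 1 and 6 in that of replicate 2, while the alpha ring had 4 and 6, the base 5 and 6 and the lid 5 and 7. The lists differ in length. When that of replicate 2 was shortened to its 2803 strongest peaks, a step chosen after the data were seen, it held 6 core and 10 regulatory genes. A summit of this shortened list lay in the window of 9.71% of all genes. Of the beta ring it held only pbs-1 and pbs-7, and pbs-7 was also in the list of replicate 1.

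**Figure D1:**
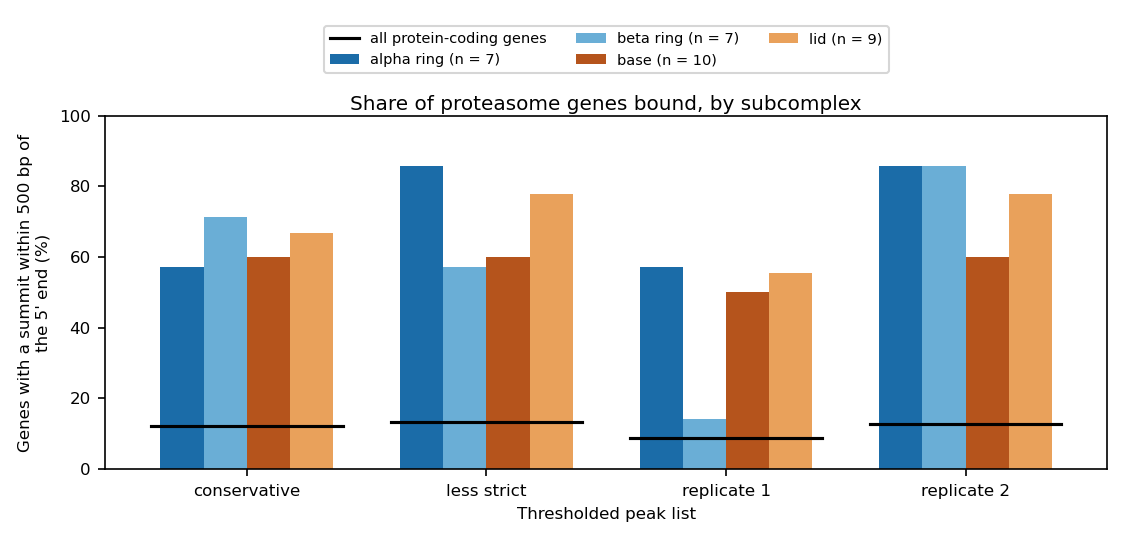
Share of the genes of each proteasome subcomplex with a summit within 500 bp of the 5′ end (bars, vertical axis in percent, from 0), in each of 4 thresholded lists. Black lines give the share of all 19973 protein-coding genes in the same list, which lies between 8.75% and 13.4%. The beta ring bar is lowest in replicate 1 (1 of 7 genes) and reaches 6 of 7 in replicate 2, whose list is longer.

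No proteasome gene was in the list of replicate 1 alone. There were 15 in both replicates' lists and in the conservative list, 4 in the list of replicate 2 and the conservative list, and 6 in the list of replicate 2 only. Another 2 were in the conservative list but in neither replicate's own thresholded list, and the last 6 were in none of these 3. The 15, 4 and 2 make up the 21 bound genes. Among all 2462 bound genes the corresponding shares were 65.6% in both replicates, 24.7% in replicate 2 alone and 8.16% in neither, with 1.58% in replicate 1 alone. Of all 19973 protein-coding genes, 342 were in the list of replicate 2 only and 17074 in none of these 3. The less strict combined list gave 23 proteasome genes (69.7%, against 13.4% of all genes), gaining pas-3, pas-7 and rpn-8 and losing pbs-3.

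In the alpha ring, pas-6 (WBGene00003927, V:5583161-5584343) had the strongest peak of all the bound proteasome genes. Its summit lay 240 bp upstream with a conservative signal of 1100 (rank 133 of 4384), and the signal was 315.5 in replicate 1 and 799.5 in replicate 2. The next gene upstream, CD4.11, is divergent and its 5′ end lies 790 bp away, beyond the window of this summit. At pas-4 the summit lay 125 bp upstream with a conservative signal of 381.2, and with 84.38 in replicate 1 and 305.5 in replicate 2. It also fell 152 bp upstream of rpb-3, which encodes a subunit of RNA polymerase II and is transcribed away from pas-4. At pas-5 the signals were 298.7 in the conservative list (301 bp upstream), 75.48 in replicate 1 and 218.7 in replicate 2, and a weaker conservative summit of signal 46.83 lay 102 bp upstream. The 3 genes pas-4, pas-5 and pas-6 were thus marked upstream of their 5′ ends in both replicates. The fourth bound gene, pas-1, differed in place, since its summit lay 186 bp inside the gene, in a coding exon (conservative 125.1, replicate 1 55.54, replicate 2 94.03).

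The other 3 alpha ring genes had no conservative summit. At pas-3 replicate 2 had a thresholded peak of signal 63.32 at 117 bp upstream, and replicate 1 had at the same distance a ranked call of 7.575 that did not pass its threshold. At pas-7 the values were 56.99 in replicate 2, thresholded, and 17.6 in replicate 1, ranked only, with the replicate 2 summit 253 bp upstream. The conservative summits nearest to both lay beyond the window, 1066 bp from the 5′ end of pas-3 with signal 163.6 and 1271 bp from that of pas-7 with signal 102.9, the latter in a coding exon of lact-2. The gene pas-2 was the exception among all 33: no ranked list of either replicate or of both combined held a summit within its window, and its nearest conservative summit was 30094 bp away. Its divergent neighbour D1054.1 begins 151 bp from it.

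In the beta ring the peaks were weaker and mostly passed the threshold in replicate 2 only. The strongest was at pbs-1 (WBGene00003947, IV:1708814-1709745), where the summit 196 bp upstream had a conservative signal of 222.4 and replicate signals of 58.06 and 174.4. The call of replicate 1 there had a score of 766, under the lowest score in the thresholded lists, which was 830. This summit lay 324 bp from the 5′ end of the divergent gene K08D12.3. The gene pbs-7 was the only beta ring member past the threshold in both replicates, with signals of 50.41 and 128.5 and a conservative signal of 166.1 at 119 bp upstream, a peak shared with F39H11.1.

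The remaining bound beta ring genes all sat in the weaker part of the conservative list, whose median signal was 148.7. At pbs-4 the conservative signal was 94.96 (115 bp upstream), with 29.49 in replicate 1 and 76.04 in replicate 2. At pbs-5, which encodes the subunit with chymotrypsin-like protease activity, it was 92.16 at 118 bp inside the gene, with 37.71 and 56.16. At pbs-3 it was 84.92, with 29.75 and 58.51, and the summit lay in the 3′ UTR of ulp-2, a SUMO protease gene that ends 22 bp upstream on the same strand. In replicate 1 these 3 calls were in the ranked list only, with scores of 162, 786 and 468. Of the unbound pair, pbs-2 had a replicate 2 peak of 51.05 at 316 bp upstream and a replicate 1 ranked call of 3.903 nearby. At pbs-6 replicate 2 had a ranked call of 49.84 at 250 bp inside the gene, with a score of 535, and replicate 1 had no call within 100 bp of the combined summit there. A conservative peak of signal 613 did lie 1334 bp from the 5′ end of pbs-2, beyond the gene.

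**Figure D2:**
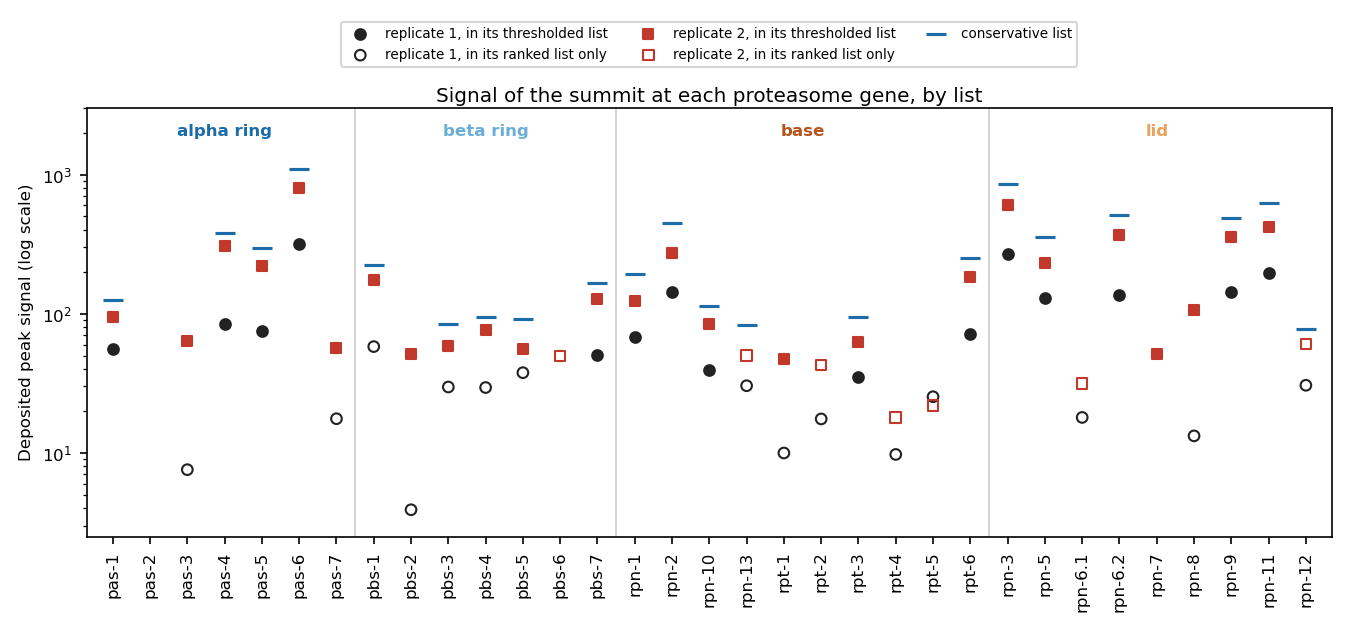
Deposited peak signal (log scale) at each of the 33 genes, by subcomplex, in replicate 1 (circles), replicate 2 (squares) and the conservative list (bars). Filled symbols passed the threshold of the replicate's own list, and open ones are ranked calls within 100 bp of the summit taken for that gene. Signal scales differ between lists, so heights are to be compared within a symbol type, where pas-6, rpn-3 and rpn-11 are the highest of each.

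In the base, the scaffold and ubiquitin receptor genes were bound and most ATPase genes were not. The peak of highest signal was at rpn-2 (WBGene00004459, III:6199184-6202594), a large scaffold subunit, 334 bp upstream (conservative 449.1, replicate 1 144.4, replicate 2 271.1). Its summit lay 436 bp from the 5′ end of the divergent gene C23G10.7. At rpn-1, the other large scaffold, the signals were 194.3, 68.45 and 122.9 in the same order, 339 bp upstream and 431 bp from ribo-1, an oligosaccharyltransferase gene. The ubiquitin receptor gene rpn-10 had a summit 94 bp inside, in an intron, with 113.5, 39.24 and 84.02. The other receptor gene, rpn-13, had a conservative signal of 82.44 at 333 bp upstream, yet in the replicates there were only ranked calls of 30.38 and 50.08 with scores of 60 and 82.

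Among the ATPase genes, rpt-6 had a conservative signal of 251.6 at 247 bp upstream, with 71.45 in replicate 1 and 182.3 in replicate 2. A second conservative summit of signal 75.6 lay 320 bp inside the gene. At rpt-3 the values were 95.38, 35.25 and 62.23, and these 2 ATPase genes passed the threshold in both replicates. At rpt-1 a replicate 2 peak of 47.67 stood 132 bp upstream, beside a replicate 1 ranked call of 9.982. At rpt-2 and rpt-5 there were ranked calls only, of 17.54 and 42.86 at rpt-2 and of 25.33 and 21.84 at rpt-5. The nearest conservative summits to the 5′ ends of rpt-1, rpt-2 and rpt-5 were 2299, 1456 and 36580 bp away. The gene rpt-4 has calls of 9.746 and 17.96 near its annotated 5′ end, which lies inside rpoa-49. It also has a conservative summit of signal 67.14 in a coding exon, 2839 bp inside and 285 bp after the start of its other annotated transcript. Counting the 5′ ends of all transcripts therefore adds rpt-4 to the bound genes.

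The lid held 5 of the 8 strongest peaks among the bound proteasome genes. The highest was at rpn-3 (WBGene00004460, III:8447353-8449346), with 270.3 in replicate 1, 605.1 in replicate 2 and 854.1 in the conservative list, 185 bp upstream. That summit is shared with hsp-110, a chaperone gene whose 5′ end lies 259 bp from it. At rpn-11 (WBGene00004467, II:4043055-4044546), the gene of the deubiquitinase that removes ubiquitin chains as substrates enter, the values were 197.2, 423.1 and 621.7, and the summit was 29 bp upstream with no other protein-coding 5′ end in reach. The 2 replicates placed the rpn-11 summit 23 and 28 bp upstream.

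Other lid genes encode structural subunits. At rpn-9 the signals were 142.1, 353.8 and 488.6 (245 bp upstream, shared with T06D8.9). At rpn-5 they were 130.5, 231.2 and 355.4, the summit being 37 bp upstream and 257 bp from the 5′ end of scc-1, the cohesin kleisin gene. At rpn-12 the conservative signal was 78.07, the lowest of the 21, at 473 bp inside a coding exon, and both replicates had only ranked calls (30.61 and 60.43). Neither rpn-7 nor rpn-8 was bound. At rpn-8, the partner of rpn-11, replicate 2 had a peak of 106.2 at 245 bp upstream and replicate 1 a ranked call of 13.25, and the combined ranked call of 104.9 there had a score of 80. At rpn-7 replicate 2 had a peak of 51.62 at 364 bp upstream, and replicate 1 had no call within 100 bp of it. The nearest conservative summits were 1730 bp from the 5′ end of rpn-7, with signal 118.5, and 1724 bp from that of rpn-8, with signal 100.9.

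The paralogues rpn-6.1 (WBGene00004462, III:6959110-6962001) and rpn-6.2 (WBGene00010309, III:8999817-9001999) both had a strong summit in the first intron. RPN-6.1 is a lid subunit whose raised expression is known in this species to increase proteasome activity. Its summit lay 648 bp inside the gene, outside the window, so the gene does not count among the 21. The signal there was 208.2 in replicate 1, 570.8 in replicate 2 and 766.7 in the conservative list (rank 253), higher than at any bound proteasome gene except pas-6 and rpn-3. The 3 lists placed that summit between 648 and 664 bp from the 5′ end. It lies 413 bp upstream of the start of a shorter annotated transcript, which begins 1061 bp inside. At the annotated 5′ end itself there were only ranked calls of 17.98 and 31.61, and the divergent gene F57B9.1 begins 89 bp away. A further conservative summit of signal 253.7 lay 2937 bp from the 5′ end, past the 3′ end of the gene.

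At rpn-6.2 the intronic summit lay 338 bp inside, between the exons that end at 68 bp and begin at 501 bp, with signals of 136.9 in replicate 1, 366.1 in replicate 2 and 515.4 in the conservative list. Its other annotated transcript begins 1118 bp inside, 780 bp beyond the summit. No other proteasome gene with a conservative signal above the list median had its strongest summit inside the gene.

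**Figure D3:**
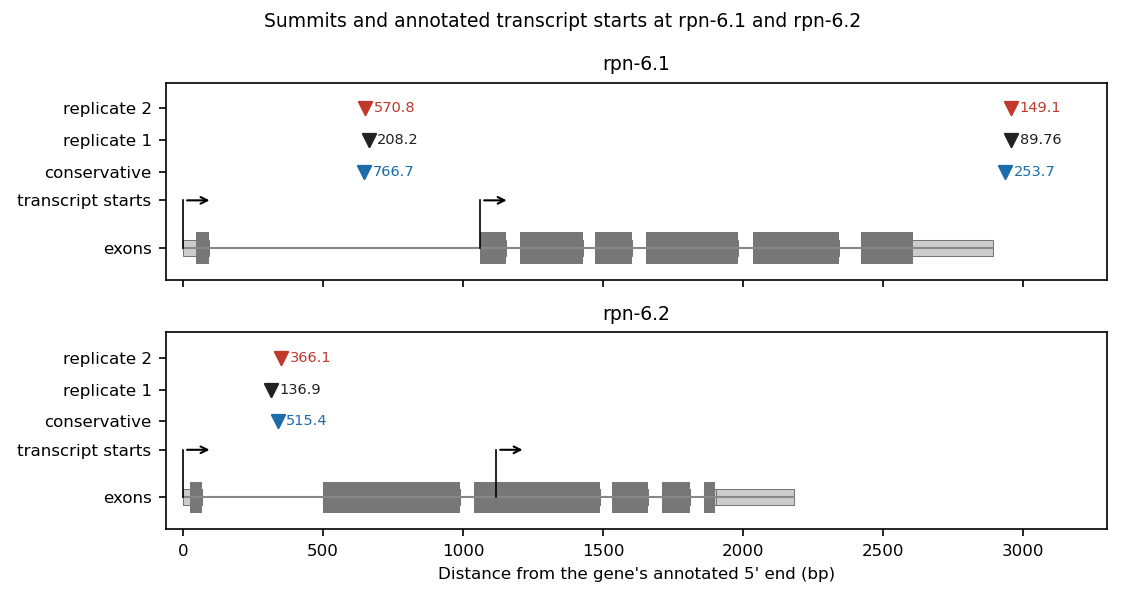
Maps of rpn-6.1 and rpn-6.2 drawn to the same scale from the annotated 5′ end (horizontal axis, bp), with exons as boxes (dark where coding) and arrows at annotated transcript starts. Triangles mark summits of the conservative list and of each replicate's thresholded list, with their signals. In both genes the 3 lists place a summit in the intron after the first exon.

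Across the 21 bound genes, 16 summits lay upstream of the 5′ end and 5 inside the gene. The median position was 124 bp upstream, with a range from 339 bp upstream to 473 bp inside, against a median of 160 bp upstream for all bound genes. It was 119 bp upstream in the core and 154.5 bp in the regulatory particle. A 250 bp window kept all 9 core genes but 7 of the 12 regulatory ones, since rpn-1, rpn-2, rpn-6.2, rpn-12 and rpn-13 lay farther out. The strongest summit of pas-5 also lay farther out, at 301 bp upstream. That gene was kept only by its weaker conservative summit of signal 46.83 at 102 bp upstream, which the less strict list did not hold. The core share then exceeded the regulatory share by 27.4 percentage points (64.3% and 36.8%), and 8.14% of all protein-coding genes were bound.

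The peaks at 8 of the 21 (3 core, 5 regulatory) also lay within 500 bp of the 5′ end of a divergent gene and upstream of both, as did those at 789 of all 2462 bound genes (32%). In all 8 the 5′ end of the proteasome gene was the nearer of the pair. The orientation of the upstream neighbour gave unequal counts: 12 of the 23 genes with a divergent neighbour were bound and 9 of the 10 with a neighbour on the same strand. Among all protein-coding genes the order was the other way, with 15.6% and 9.54% bound. All 8 proteasome genes whose same-strand neighbour ends less than 500 bp upstream were bound, against 16.5% of all genes in that arrangement. The count depends on the cut, since rpt-1, with a gap of 503 bp, was unbound. Under 1000 bp, 8 of 9 were bound. At pas-1, pbs-5, rpn-10 and rpn-6.2 the summit lay inside the gene, and rpn-13 passed the threshold in neither replicate.

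**Figure D4:**
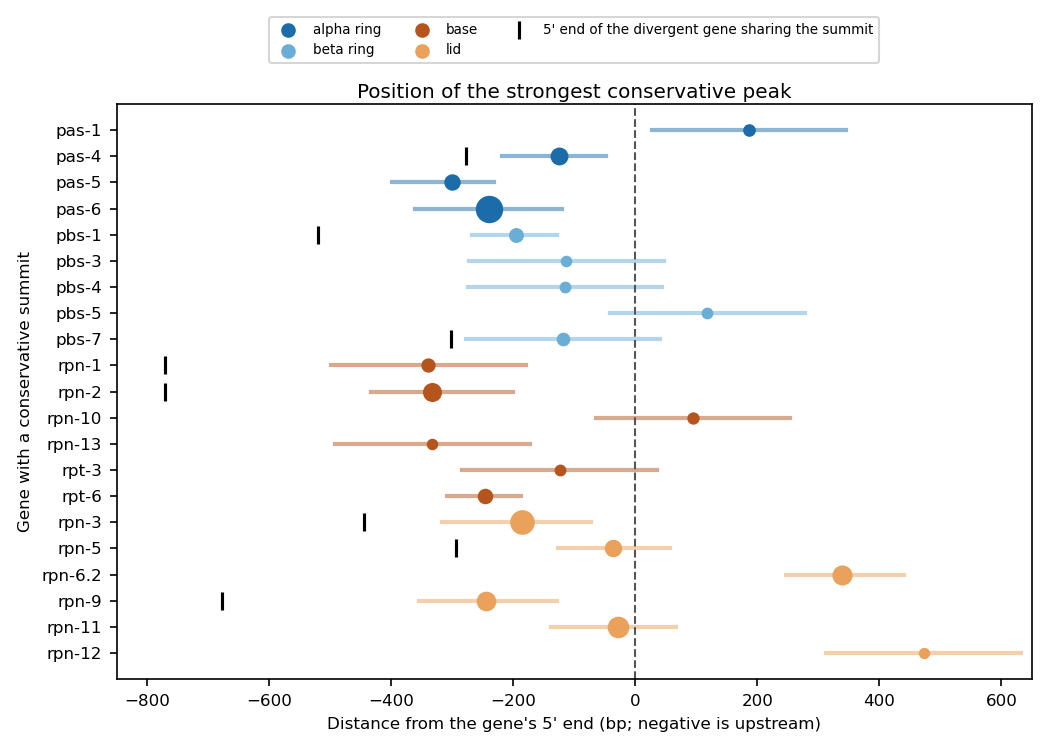
Strongest conservative peak at each of the 21 bound genes, as a line from its start to its end with a point at the summit, larger for higher signals. The horizontal axis is the distance from the 5′ end of the gene in bp, negative upstream, and short vertical bars mark the 5′ end of the divergent gene that shares the summit. The summits lie between 339 bp upstream and 473 bp inside, and 8 genes carry a bar.

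The strength of the peaks spanned a wide range. The median conservative signal at the 21 bound genes was 222.4 (78.07 to 1100), against 202.7 at all bound genes, and 13 of the 21 exceeded the list median of 148.7. The core median was 166.1 and the regulatory median 303.5. By subcomplex the lid stood at 502, the alpha ring at 340, the base at 153.9 and the beta ring at 94.96. The alpha ring of the core thus had a higher median than the base of the regulatory particle. The ranges of the lid and the beta ring overlapped, from 78.07 to 854.1 and from 84.92 to 222.4. Peak width went with signal: 10 of the 21 peaks were exactly 320 bp wide, the modal width of the list (57.3% of its peaks), and had signals up to 194.3, while the 11 narrower ones, 123 to 245 bp, had signals from 222.4 upward.

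The order of the genes was compared between the replicates. Over the 21 bound genes, Spearman's rho between the ranked signals of replicates 1 and 2 was 0.95, and it was 0.92 over the 9 core genes and 0.97 over the 12 regulatory genes. Over the 30 genes with a ranked call near the same summit in both replicates it was 0.88, and over 2357 bound protein-coding genes with such calls it was 0.9. The conservative list was itself built from both replicates, and calls had to lie within 100 bp of its summit, so agreement is partly fixed by how the genes were taken. These values describe agreement across genes, which share library and control, and carry no p. The replicate summits at the 21 genes were 17 bp apart at the median (0 to 91 bp), and 13 pairs lay within 30 bp.

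Below the thresholds nearly every proteasome gene was called. The combined ranked list had a summit in the window of 32 of the 33 genes (44.5% of all genes), as had the ranked lists of replicate 1 (45.5% of all genes) and replicate 2 (47.3% of all genes). The gene without one was pas-2 in each.

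The chromosomes differ in how many of their genes were bound, from 20.8% on chromosome III to 1.87% on X, and no proteasome gene lies on X. Bound proteasome genes numbered 6 of 10 on chromosome I (19.4% of all its genes), 5 of 7 on II (13.8%), 6 of 8 on III, 2 of 3 on IV (12.9%) and 2 of 5 on V (8.13%). Set beside other gene families of multi-subunit complexes in the same list, the 63.6% compares with 78.2% of the 78 cytosolic ribosomal protein genes (61 bound) and 75% of the 8 CCT chaperonin genes. Those differences were not tested.

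Genes that act with the proteasome were read from a list of 19, of which 7 were bound (12.3% of all genes) and 6 of these were in both replicates. The list of replicate 1 held 7 of the 19 (8.75% of all genes) and that of replicate 2 held 6 (12.9% of all genes). The highest signal was at cdc-48.1, the p97 segregase that extracts ubiquitin-marked proteins, with 564.4 in replicate 1, 1304 in replicate 2 and 1860 in the conservative list at 167 bp upstream. That exceeds the signal at any proteasome subunit gene, and its paralogue cdc-48.2 had no summit in the conservative list or in either replicate's thresholded list. The ubiquitin-activating enzyme gene uba-1 followed (180.2, 482.7 and 684.7, at 239 bp upstream), then the ubiquitin fusion gene ubq-2 (152.9, 410.8 and 561.8, at 484 bp upstream).

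The 2 deubiquitinases that dock on the regulatory particle were bound in both replicates, usp-14 with 53.89, 221.6 and 277.8 and ubh-4 with 51.86, 128.0 and 165.9. The ubiquitin-like fusion gene ubl-1 had 63.61, 179.2 and 235.2. The ERAD gene sel-1 was in the conservative list only (72.79). The polyubiquitin gene ubq-1 had a thresholded summit in replicate 1 only (25.33, 404 bp inside). In these 3 lists no summit was found within 500 bp at skn-1, nor at ddi-1 and png-1, whose products process its SKN-1A form, nor at the shuttle factor genes rad-23 and ubql-1. The same held for dss-1, sel-11, ufd-1, npl-4.1 and npl-4.2.

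The 4 words in capitals in the sequences above came from the 500 strongest conservative summits lying over 1000 bp from the 5′ ends of proteasome genes. There AAGGCGC was in 25.2% of the 101 bp windows and 0.9% of the flanking windows 300 bp away, TACCGTA in 24.6% and 1.2%, CGAGACC in 22.6% and 1.1%, and GCGCGAA in 16.2% and 0.5%. Both strands were read, and no chosen word shares 5 or more letters in a row with another. At the bound proteasome genes, 7 of 21 summits held at least 1 word (33.3%), against 25.3% of all conservative summits. Those 7 were at pas-4, pas-5 and pas-6 in the core and rpn-1, rpn-3, rpn-5 and rpn-6.2 in the regulatory particle. Here and below, the shares of all summits include the 500 from which the words were picked for being frequent.

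TACCGTA was the most frequent, at pas-4, pas-6, rpn-5 and rpn-6.2 (19% of the 21, against 7.8% of all summits), and it also stands in the intronic window of rpn-6.1. The other words were near their share of all summits: CGAGACC was at rpn-1, rpn-3 and rpn-6.2 (14.3%, against 10.5%), AAGGCGC at rpn-1 and rpn-6.2 (9.52%, against 10.7%), and GCGCGAA at pas-5 (4.76%, against 5.86%). Words were found at 6 of the 11 peaks with a signal over 200 (54.5%, against 41.5% of all such peaks) and at 1 of the 10 under 200 (15.9% of all such peaks). None of the 5 bound beta ring summits held a word, but all of them except that of pbs-1 had a signal under 200. With so few weak peaks this count says little about the ring. In the 300 bp from 250 bp before to 50 bp after the 5′ end, 12 of the 33 genes, pbs-4 among them, held a word (36.4%), against 9.91% of all protein-coding genes. The words came from summits of the conservative list, which lay near 63.6% of proteasome genes and 12.3% of all genes. This comparison is therefore not independent of the binding counts.

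The letters of the SKN-1 site, read as TATCAT or TGTCAT on either strand, were in the summit windows of pas-1, rpn-1 and rpn-2 (14.3% of 21, against 6.5% of all summits). They also stand in the intronic window of rpn-6.1, which is not among the 21. In the 300 bp promoter windows they were found at 15 of the 33 genes (45.5%, against 32.3% of all genes). GAGAGA was in 1 summit window, that of pas-5 (4.76%, against 10.8%). The splice acceptor letters TTTCAG were in 4 (19%, against 10.3%), and in the promoter windows of 23 genes (69.7%, against 51.7%). These are matches of letters, not evidence of a site. AG directly before the 5′ end was found in 13 of 14 core genes and 11 of 19 regulatory genes, and in 14 of the 21 bound and 10 of the 12 unbound genes.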

How the data were processed

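Immunoprecipitated chromatin of 2 biological replicates (1 group) was called against 1 control common to both, per the file listing that the submitters deposited. The authors deposited peak lists on ce11: a ranked and a thresholded list for each replicate, and ranked, conservative and less strict lists for both together. The 7 lists used give each peak a deposited signal, the authors' enrichment value, which is never negative, and a deposited score, scaled from the irreproducible discovery rate and capped at 1000. Summits are the deposited offsets from the peak starts. Which aligner and peak caller were used is not given in the sources used here, and a further input file of the thresholded lists is not described. Unnamed value columns of the combined ranked lists were not used. Read depth is unknown, so no count interval can be given for a signal.

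Genes and 5′ ends came from Ensembl release 115 (WBcel235, the same assembly as ce11), and bases from the RefSeq copy of that assembly. A summit within 500 bp of a 5′ end was assigned to every gene it reached. A replicate's call was taken as the same place within 100 bp of the combined summit. The 7-letter words were picked after the data were seen. The members, the lists and the alternatives were chosen with earlier results of these data known, so lists are described by counts and medians beside all genes and no test was run. Values are given in full for the 4 bound genes of highest signal in each particle, for genes in only 1 replicate's list, with a shared peak or with no conservative summit, and for rpn-6.1 and rpn-6.2. Shares carry 95% Wilson intervals that cover counting error only. Whether the replicates came from separate cultures is not stated beyond their numbering as biological replicates. Python 3.11.15, numpy 2.4.6, pandas 2.3.3, scipy 1.17.1 and matplotlib 3.10.9 were used, and the assignment was tested on simulated data.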

Additional observations from a re-analysis of the deposited data

How the results depend on the processing

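Of 68 values recomputed under 13 alternatives, 61 moved by less than the limit set for them, and 7 moved by more. The limit was 1.5 times for counts and background shares, the interval for the core minus regulatory difference and the spread across genes for medians. Both of the latter limits are wide. The difference could change sign, or go from 1.13 to 27.4 points, and stay within its interval, so the tally is no measure of stability. Leaving out replicate 2 gave 15 bound proteasome genes (8.75% of all genes), 5 in the core and 10 in the regulatory particle. Leaving out replicate 1 gave 25 (12.9% of all genes), 12 in the core and 13 in the regulatory particle. The core minus regulatory difference then ran from -16.9 to 17.3 percentage points and the median position from -193 to -128 bp. The median signals, 84.38 and 122.9, belong to lists with other scales and cannot be set beside that of the conservative list. Keeping only conservative peaks at or above the median signal left 13 genes, 5 of them core (7.91% of all genes). Leaving out shared peaks left 13, 7 of them regulatory (7.92% of all genes), with a median signal of 113.5 in place of 222.4. A 250 bp window left 7 regulatory genes and a core minus regulatory difference of 27.4 points. Among genes with any combined ranked summit in the window, 27.7% of 8886 were bound, in place of 12.3% of all. A 1000 bp window gave 22 genes (15.8% of all genes), adding rpn-6.1. The 5′ ends of all transcripts gave 23 (13.1%), adding rpn-6.1 and rpt-4. The causes were not tested. No paired analysis was possible because both replicates belong to a single group. Depth is unknown, so a missing peak cannot be told apart from one below detection.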
